A study of Mus musculus with 23 samples.

Results

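The genes described here are 7 transcripts of mononuclear phagocytes and of the signal that recruits them, Csf1r, Msr1, Fcgr3, C1qa, Ly75, Ccl2 and Ccr2, read by name from a panel of 3826 mouse genes. All 7 were on the panel, and all 7 were among the 2925 genes that passed a filter on low counts. The samples were 23 mouse mammary carcinomas. Of these, 12 came from mice treated with abemaciclib, which inhibits the cell-cycle kinases CDK4 and CDK6, and 11 from vehicle-treated control mice. Every animal had received doxycycline from 6 weeks of age to induce tumours, and animals were randomized once tumours were established. Abemaciclib was given by gavage at 90 mg/kg each day, and tumours were frozen after the 12th dose. The labels name neither strain nor transgene, and they number tumours without naming animals, so p-values measure the spread between tumours as labelled.

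Macrophages in a tumour come from resident cells and from blood monocytes. Ccl2 is a chemokine that draws monocytes out of the circulation through its receptor Ccr2, which classical monocytes carry at a high level and most mature tissue macrophages at a low one. Survival of macrophages depends on Csf1r, the receptor tyrosine kinase for CSF1 and interleukin 34, and their uptake of particles, immune complexes and lipids runs through receptors such as Msr1 and Fcgr3. Of the 7, C1qa encodes a secreted protein and Ly75 is a receptor of dendritic cells as well, so not all of the 7 are macrophage receptors.

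Each gene was read through 1 short amplicon of about 110 bases, and libraries held 2756919 to 4990391 counts in abemaciclib tumours and 3044380 to 4492736 in control tumours. Levels are given in CPM, the counts scaled to a common library size with TMM factors, and are compared between tumours and not between genes, because amplicons amplify unequally. Summed CPM of 10 luminal epithelial markers on the panel, among them Krt8, Krt18 and Epcam, was 5449 to 11942 in abemaciclib and 6179 to 8864 in control tumours. Abemaciclib tumours 3 and 10, set apart in an earlier analysis of the same tumours, had 520 and 1726 CPM of the chemokine Cxcl9, against 9.41 to 111 CPM in the other abemaciclib tumours and at most 50.7 CPM in control tumours. Results that rest on them are given with and without them.

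In the comparison of abemaciclib with vehicle, 6 of the 7 genes had a higher mean level in abemaciclib tumours and Ccr2 a lower one. By edgeR's quasi-likelihood test all 7 had an unadjusted p under 0.05, against 13.4% of all tested genes (7.59% higher and 5.81% lower), and 0 of the 7 passed a Benjamini-Hochberg adjusted p of 0.05, against 0% of all tested genes. The 7 were chosen with these results known, so their number at an unadjusted p is a description. DESeq2's Wald test and limma-voom with quality weights each passed the same 4, Ly75, Msr1, C1qa and Fcgr3, against 2.05% of all tested genes by DESeq2 and 4.34% by limma-voom. Csf1r, Ccl2 and Ccr2 passed none of the 3 tests. The tissue was bulk, so a change in the number of macrophages or monocytes and a change in RNA per cell cannot be told apart.

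**Figure D1:**
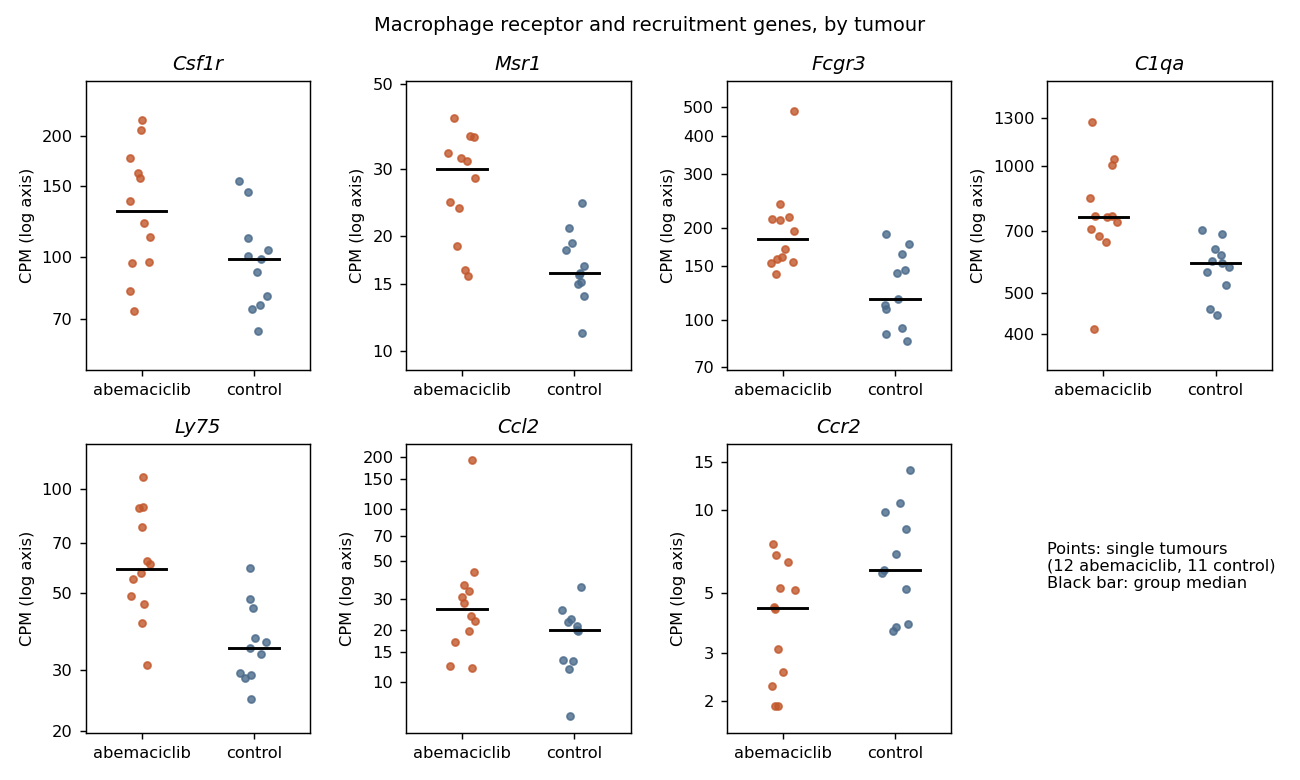
Level of each of the 7 genes in every tumour, in CPM on a log axis, abemaciclib tumours on the left (n = 12) and control tumours on the right (n = 11) of each panel. Points are tumours and black bars are group medians. Single abemaciclib tumours stand far above the rest for Fcgr3 (486 CPM) and Ccl2 (191 CPM), and the Ccr2 median is lower in abemaciclib (4.40 CPM) than in control tumours (6.03 CPM).

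Csf1r (chromosome 18, 61100598 to 61132149, mm10, plus strand), the receptor through which CSF1 keeps macrophages alive, ran from 73.4 to 219 CPM in abemaciclib tumours with a median of 129.7, against 65.3 to 154 CPM in control tumours with a median of 98.7. The groups overlapped widely, with 5 of 12 abemaciclib tumours above every control tumour, a count for which no share of tested genes is given. Abemaciclib tumour 12 was highest of its group for Csf1r, Msr1 and C1qa and also for Ptprc, the pan-leukocyte phosphatase CD45, and abemaciclib tumour 2 was lowest for Csf1r, Ly75 and Ptprc. The means were 137 ± 47.9 CPM (SD, n = 12) in abemaciclib and 100.04 ± 28.2 CPM (SD, n = 11) in control tumours, a log2 fold change of 0.45 (SE 0.182, edgeR adjusted p = 0.246, 95% interval 0.074 to 0.82). Scaled to library totals alone, the value was 0.27, and that scaling also moved the median of all tested genes by -0.12.

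The ligand Csf1 had a log2 fold change of 0.31 (SE 0.159, edgeR adjusted p = 0.398). Of 13 genes of the CSF1 axis on the panel, 12 were tested, 10 had positive and 2 had negative values around a median of 0.30, and 4 had an unadjusted p under 0.05, all higher, against 7.59% of all tested genes. Besides Csf1r these were the myeloid transcription factors Spi1 at 0.43 (SE 0.153), Irf8 at 0.50 (SE 0.199) and Cebpa at 0.31 (SE 0.147), with adjusted p of 0.193, 0.238 and 0.349 by edgeR. The median over all tested genes was 0.0055, and the list's median, like those given for other lists, is a description and was not tested.

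Msr1 (chromosome 8, 39581685 to 39642673, minus strand), the class A scavenger receptor that takes up modified lipoproteins and debris, ran from 15.7 to 40.6 CPM in abemaciclib tumours with a median of 29.9, against 11.2 to 24.3 CPM in control tumours with a median of 16.0. Of the 12 abemaciclib tumours 11 lay above the control median, as at least 11 did for 3.62% of tested genes, and 8 lay above every control tumour, as at least 8 did for 0.889%. The means were 28.1 ± 8.30 CPM in abemaciclib and 17.0 ± 3.60 CPM in control tumours, a log2 fold change of 0.73 (SE 0.168, edgeR adjusted p = 0.0578, 95% interval 0.38 to 1.07). The adjusted p was 0.00512 by DESeq2 and 0.0187 by limma-voom. By edgeR it passed when abemaciclib tumour 2, 3 or 10 was left out (adjusted p = 0.0484, 0.0435 and 0.0468), and adjusted p lay between 0.0435 and 0.119 over the 23 fits that each left out 1 tumour.

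Ly75 (chromosome 2, 60292103 to 60383303, minus strand), the endocytic lectin DEC-205 through which dendritic cells take up antigen, ran from 31.0 to 108 CPM in abemaciclib tumours with a median of 58.8, against 24.6 to 59.0 CPM in control tumours with a median of 34.7. Of the abemaciclib tumours 11 of 12 lay above the control median, as at least 11 did for 3.62% of tested genes. Above every control tumour lay 6, a count for which no share of tested genes is given. The means were 63.8 ± 22.6 CPM in abemaciclib and 36.8 ± 10.2 CPM in control tumours, a log2 fold change of 0.79 (SE 0.186, edgeR adjusted p = 0.0578, 95% interval 0.41 to 1.18), with adjusted p of 0.00512 by DESeq2 and 0.0137 by limma-voom. By edgeR it passed without abemaciclib tumour 2 (adjusted p = 0.0294), abemaciclib tumour 10 (0.0486) or control tumour 6 (0.0323), and adjusted p lay between 0.0294 and 0.119 over the fits that left out 1 tumour.

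Of 13 scavenger and endocytic receptor genes on the panel, 11 were tested. Besides Msr1 and Ly75, 8 of 9 were positive with a median of 0.46, and 6 of 9 had an unadjusted p under 0.05, all higher, against 7.59% of all tested genes, with 0 at an adjusted p under 0.05 by edgeR. Without abemaciclib tumours 3 and 10, 5 of the 11, Msr1 and Ly75 included, passed by edgeR after adjustment, where 93 of all 2924 tested genes passed. Lrp1, a receptor of lipoproteins and protease complexes, had the smallest p, at a log2 fold change of 0.50 (SE 0.114, edgeR adjusted p = 0.0578). Cd36, a scavenger receptor for fatty acids that endothelium and adipocytes also make, was at 1.43 (SE 0.431, edgeR adjusted p = 0.127), and Scarb1 at -0.07 was the negative member. Marco, a second class A scavenger receptor of macrophages, was set aside by the filter at 0 to 7 counts in abemaciclib and 0 to 1 in control tumours.

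Fcgr3 (chromosome 1, 171051174 to 171064935, minus strand), the low-affinity activating receptor for IgG, ran from 141 to 486 CPM in abemaciclib tumours with a median of 184, against 85.2 to 191 CPM in control tumours with a median of 117. All 12 abemaciclib tumours lay above the control median, where at least 11 did for 3.62% of tested genes. Above every control tumour lay 6, a count for which no share of tested genes is given. Abemaciclib tumour 9 at 486 CPM stood apart from the next highest, abemaciclib tumour 4 at 239 CPM. The means were 209 ± 93.0 CPM in abemaciclib and 129.6 ± 36.8 CPM in control tumours, a log2 fold change of 0.69 (SE 0.188, edgeR adjusted p = 0.0912, 95% interval 0.30 to 1.07), with adjusted p of 0.0220 by DESeq2 and 0.0401 by limma-voom. Without abemaciclib tumour 9 the value was 0.50 (adjusted p = 0.0823 by edgeR), without that tumour and control tumour 8 it was 0.45 (0.125), and without abemaciclib tumour 10 it was 0.73 (0.0486), and adjusted p lay between 0.0486 and 0.158 over the fits that left out 1 tumour.

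The signalling partner Fcer1g, the common gamma chain that Fcgr3 needs at the cell surface, had a log2 fold change of 0.44 (SE 0.132, edgeR adjusted p = 0.127). Fcgr1, the high-affinity IgG receptor, was at 0.24 (SE 0.145) and Fcgr2b, the inhibitory IgG receptor, at 0.33 (SE 0.199), with adjusted p of 0.502 and 0.482 by edgeR. Of 7 tested genes of Fc receptors and their signalling, 5 were positive with a median of 0.33. At an unadjusted p under 0.05 were 3, all higher, against 7.59% of all tested genes, Fcgr3, Fcer1g and the kinase Syk at 0.40 (SE 0.150). Besides Fcgr3 that was 2 of 6, and 0 passed by edgeR after adjustment. Fcgr3 and Fcgr2b are related genes that share some sequence. In the longest GENCODE transcript of Fcgr3, 24 of 1238 windows of 110 bases (1.94%) occurred unaltered in a transcript of Fcgr2b, and the amplicon's position was not known. The corresponding share was 0% for Csf1r, Msr1, C1qa, Ly75 and Ccl2.

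C1qa (chromosome 4, 136895917 to 136898803, minus strand), the A chain of the complement protein C1q that tissue macrophages secrete, ran from 411 to 1269 CPM in abemaciclib tumours with a median of 759, against 443 to 705 CPM in control tumours with a median of 589. Of the abemaciclib tumours 9 lay above every control tumour, where at least 8 did for 0.889% of tested genes. Abemaciclib tumour 9 lay below every control tumour. That tumour thus had the highest Fcgr3 and the lowest C1qa of its group. The means were 802 ± 218 CPM in abemaciclib and 581 ± 83.2 CPM in control tumours, a log2 fold change of 0.47 (SE 0.133, edgeR adjusted p = 0.111, 95% interval 0.19 to 0.74), with adjusted p of 0.0296 by DESeq2 and 0.0130 by limma-voom. Besides C1qa, 3 complement genes were tested, all positive with a median of 0.60, Cfb at 0.60 (SE 0.299), C3, the central component, at 1.11 (SE 0.324) and C5ar1, the receptor for C5a, at 0.50 (SE 0.204), with adjusted p of 0.395, 0.124 and 0.247 by edgeR.

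**Figure D2:**
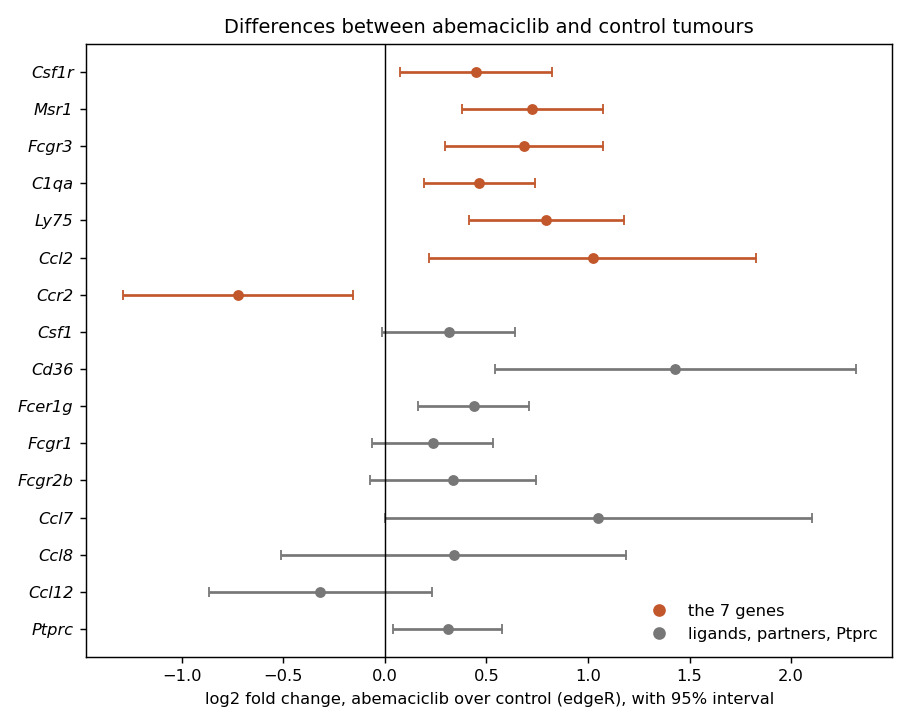
Log2 fold change of abemaciclib over control by edgeR with its 95% interval, for the 7 genes (orange) and for ligands, partners and the leukocyte gene Ptprc (grey). The 7 intervals exclude 0 before adjustment for the number of genes tested, with Ccr2 on the negative side at -0.72 and Ccl2 the widest, from 0.22 to 1.83.

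Ccl2 (chromosome 11, 82035571 to 82037453, plus strand), the monocyte chemoattractant, ran from 12.1 to 191 CPM in abemaciclib tumours with a median of 26.4, against 6.35 to 35.5 CPM in control tumours with a median of 19.9. Abemaciclib tumour 10 held the highest value, on 832 counts, and the next highest was 43.3 CPM. The other 11 abemaciclib tumours overlapped the control tumours, and 3 of 12 in all lay above every control tumour. No share of tested genes is given for that count. The means were 39.3 ± 48.7 CPM in abemaciclib and 19.3 ± 7.93 CPM in control tumours, a log2 fold change of 1.02 (SE 0.391, edgeR adjusted p = 0.214, 95% interval 0.22 to 1.83). Without abemaciclib tumour 10 it was 0.40 (adjusted p = 0.464) and without abemaciclib tumours 3 and 10 it was 0.29 (adjusted p = 0.590), and adjusted p lay between 0.172 and 0.464 over the fits that left out 1 tumour.

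The related chemokine genes Ccl7, Ccl8 and Ccl12 had values of both signs. Ccl7 ran from 3.92 to 247 CPM in abemaciclib tumours with a median of 21.2, against 6.06 to 47.7 CPM in control tumours with a median of 20.6, a log2 fold change of 1.05 (SE 0.511, edgeR adjusted p = 0.373), again with abemaciclib tumour 10 highest. Without abemaciclib tumours 3 and 10 the Ccl7 value was 0.11 (SE 0.382, edgeR adjusted p = 0.906). Ccl8 was at 0.34 (SE 0.413) and Ccl12 at -0.32 (SE 0.267), with adjusted p of 0.761 and 0.646 by edgeR. Ccl2, Ccl7, Ccl12 and Ccl8 lie in this order within a stretch of chromosome 11 from 82035571 to 82116799.

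Ccr2 (chromosome 9, 124101950 to 124113557, plus strand) is the receptor for Ccl2. It ran from 1.91 to 7.52 CPM in abemaciclib tumours with a median of 4.40. In control tumours it ran from 3.61 to 14.0 CPM with a median of 6.03. These levels rested on 6 to 32 counts in abemaciclib and 13 to 52 counts in control tumours, the fewest of the 7 genes. Of the abemaciclib tumours 9 of 12 were under the control median, as at least 9 were for 19.2% of tested genes, and 5 were under every control tumour, as at least 5 were for 7.79%. The means were 4.31 ± 1.98 CPM in abemaciclib and 7.12 ± 3.34 CPM in control tumours, a log2 fold change of -0.72 (SE 0.276, edgeR adjusted p = 0.214, 95% interval -1.29 to -0.15). The value stayed negative when each tumour was left out in turn, from -0.82 to -0.58, with adjusted p from 0.154 to 0.377.

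Of 16 chemokines and receptors of monocyte traffic on the panel, 13 were tested, with 8 positive and 5 negative values and a median of 0.23. At an unadjusted p under 0.05 stood Ccl2, Ccl3 at 0.69 (SE 0.259) and Ccl7 on the higher side, and Ccr2 and Cxcr4, the receptor for CXCL12, at -0.35 (SE 0.154) on the lower side, with 0 of 13 passing by edgeR after adjustment. Besides Ccl2 and Ccr2 that was 2 higher and 1 lower of 11, against 7.59% higher and 5.81% lower of all tested genes. Cx3cr1, the fractalkine receptor of patrolling monocytes and many macrophages, was at 0.28 (SE 0.195). Of 6 tested monocyte markers, 3 were positive and 3 negative with a median of 0.036, and Nr4a1, a nuclear receptor needed by patrolling monocytes and induced by many stimuli in other cells, was lowest at -1.30 (SE 0.351, edgeR adjusted p = 0.0911). Without abemaciclib tumours 3 and 10 the median was 0.11 over the 13 traffic genes and -0.12 over the 6 monocyte markers.

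Promoter sequence is shown for Ly75, Fcgr3 and Ccr2, the only genes of the 7 for which a window was available. The windows, 250 bases before to 50 after the start, come from a table of RefSeq promoters on GRCm38.p6, in which 3 of the 7 genes were matched, and run 5′ to 3′ on the strand of the gene. By the GENCODE positions given above, Fcgr3 begins at 171064935 on the minus strand. Its window lies inside the gene and not at that upstream end. The Ccr2 window runs from 124101933 to 124102232 on the plus strand, where GENCODE begins the gene at 124101950. Most of the Ccr2 window thus also lies inside the gene. Capitals mark matches, on either strand, to the PU.1 core GAGGAA, the interferon-stimulated element core (GAAA, any 2 bases, GAAA), the NF-kappaB motif (GGG, any 2 bases, TTTCC) and the C/EBP core TTGCNNAA, which overlap in none of the windows shown. Of 32851 promoter windows in the same table these motifs occurred in 28.3%, 3.44%, 1.63% and 10.8%.
Ly75, chr2:60383224-60383523, minus strand: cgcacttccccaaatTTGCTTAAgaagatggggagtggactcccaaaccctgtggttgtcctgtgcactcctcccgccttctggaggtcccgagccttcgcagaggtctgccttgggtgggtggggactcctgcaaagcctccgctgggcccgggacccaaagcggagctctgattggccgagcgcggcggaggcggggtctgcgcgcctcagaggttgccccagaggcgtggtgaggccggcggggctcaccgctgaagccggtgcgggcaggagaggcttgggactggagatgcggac
Fcgr3, chr1:171059354-171059653, minus strand: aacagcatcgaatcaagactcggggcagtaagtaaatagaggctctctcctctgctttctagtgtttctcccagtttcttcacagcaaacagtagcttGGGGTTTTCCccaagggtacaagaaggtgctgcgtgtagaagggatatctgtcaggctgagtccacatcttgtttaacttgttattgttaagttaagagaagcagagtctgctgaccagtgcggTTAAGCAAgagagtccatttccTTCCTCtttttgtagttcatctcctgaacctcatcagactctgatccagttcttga
Ccr2, chr9:124101933-124102232, plus strand: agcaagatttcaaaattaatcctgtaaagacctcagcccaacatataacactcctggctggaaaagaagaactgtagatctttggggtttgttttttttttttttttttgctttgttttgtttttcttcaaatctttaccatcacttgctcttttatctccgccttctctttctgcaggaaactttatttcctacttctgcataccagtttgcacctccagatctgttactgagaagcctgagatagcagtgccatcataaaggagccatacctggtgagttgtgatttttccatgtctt
The Fcgr3 window held a PU.1 core, an NF-kappaB motif and a C/EBP core, the Ly75 window a C/EBP core, and the Ccr2 window none of the 4 motifs. These matches describe letters in a window and no binding was measured.

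To set the receptors against the recruitment pair without any scaling between libraries, the count of each gene was divided by the count of Csf1r in the same tumour. Ccr2 stood lower relative to Csf1r in abemaciclib tumours. The log2 ratio ran from -6.31 to -3.56 in abemaciclib tumours with a median of -5.20, against -4.53 to -2.43 in control tumours with a median of -4.01. Of the 12 abemaciclib tumours 11 had a ratio under the control median and 8 a ratio under that of every control tumour. Abemaciclib tumour 10 was highest of its group. How many other genes had such counts of ratios was not computed. The mean log2 ratio was -5.01 ± 0.745 (SD, n = 12) in abemaciclib and -3.87 ± 0.606 (SD, n = 11) in control tumours, a difference of -1.14 (two-sided permutation test, p = 0.000690).

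This ratio has to be read against other genes, since Csf1r itself had a higher mean in abemaciclib tumours. Over the 2924 other tested genes the median difference was -0.42, and 34.1% of genes had an unadjusted p under 0.05, with 34% of genes both under 0.05 and lower. A permutation p as small as that of Ccr2, with a lower ratio, occurred in 0.616% of genes, and a difference as low in 2.36%. Adjusted over all 2924 ratios the p of Ccr2 was 0.0938, and 0.0684% of genes passed at 0.05. With the pan-leukocyte gene Ptprc in place of Csf1r the difference for Ccr2 was -1.02 (permutation p = 0.000670, 0.0399 adjusted over all 2924 ratios to Ptprc, where 4.99% of genes passed), and without abemaciclib tumours 3 and 10 it was -1.34 relative to Csf1r (permutation p = 5.00e-05). The ratios of all other genes were not computed without those tumours, so that p has no share of genes to be read against.

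The other 5 genes had no detectable difference from Csf1r. The differences were 0.27 for Msr1, 0.23 for Fcgr3, 0.013 for C1qa, 0.34 for Ly75 and 0.25 for Ccl2, with permutation p from 0.217 for Ly75 to 0.937 for C1qa. The Ccl2 ratio turned to -0.062 without abemaciclib tumour 10, and the C1qa ratio, near 0, changed sign with several single tumours left out. Relative to Ptprc the differences of Msr1 and Ly75 were 0.38 and 0.45 (permutation p = 0.0217 and 0.0228), and neither passed after adjustment over all ratios to Ptprc (adjusted p = 0.108 and 0.111). At an unadjusted p under 0.05, 31.7% of genes differed relative to Ptprc, 0.581% of genes on the higher side and 31.2% on the lower.

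**Figure D3:**
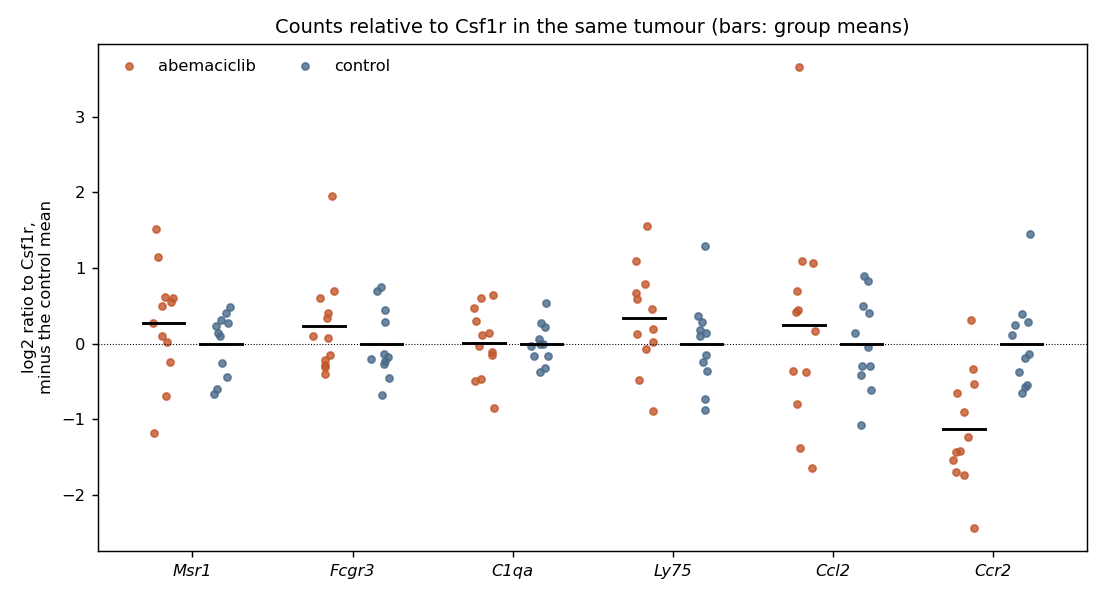
Log2 ratio of each gene's count to the Csf1r count in the same tumour, with the control mean of that gene subtracted, abemaciclib tumours (orange, n = 12) left of control tumours (blue, n = 11). Bars are group means. The Ccr2 mean lies 1 log2 unit or more below control (difference -1.14), and the other 5 means lie between 0.013 and 0.34.

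Within a group, 15 of 21 pairs of the 7 genes had a positive Spearman's rho in abemaciclib tumours and 18 of 21 in control tumours. Of 42 correlations, 21 pairs in each group, 0 had an adjusted p under 0.05 by Pearson's r or Spearman's rho over permutations. The closest pair in control tumours was Csf1r and C1qa, with r = 0.756 (permutation p = 0.00748, adjusted p = 0.314) and rho = 0.782 (p = 0.00636, adjusted p = 0.200), and r = 0.790 without the 2 tumours farthest from the median of Csf1r. The same pair had r = 0.518 and rho = 0.483 in abemaciclib tumours, with adjusted permutation p of 0.481 and 0.314. The closest pair in abemaciclib tumours was Ly75 and Ccl2, with r = 0.555 (permutation p = 0.0582, adjusted p = 0.432) and rho = 0.727 (p = 0.00954, adjusted p = 0.200), and r = 0.785 without the 2 farthest. Msr1 and Ccl2 had r = 0.371 in the 12 abemaciclib tumours and r = 0.873 without tumours 3 and 10 (adjusted permutation p = 0.0491). Ccl2 and its receptor Ccr2 had rho = 0.280 in abemaciclib and 0.164 in control tumours. The median rho over the 21 pairs was 0.196 in abemaciclib and 0.473 in control tumours, and the difference between groups was not tested.

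**Figure D4:**
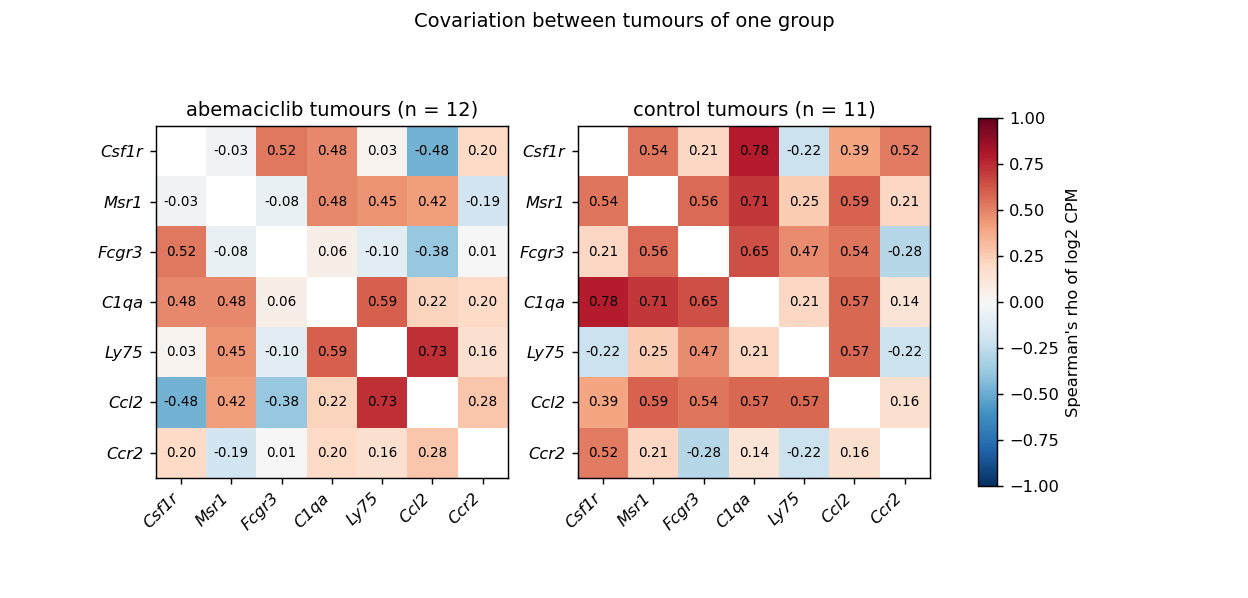
Spearman's rho of log2 CPM between each pair of the 7 genes, within abemaciclib tumours (left, n = 12) and within control tumours (right, n = 11), on a colour scale from -1 to 1. The darkest red cells are Ly75 with Ccl2 on the left (0.727) and Csf1r with C1qa on the right (0.782), and none of the 42 correlations passed after adjustment.

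The genes whose tumour-to-tumour pattern was most like that of each gene were found by Spearman's rho over the 23 tumours after removal of group means, 3 for each gene out of 2924, as a description. For C1qa they were the leukocyte signalling genes Lcp2 (0.800) and Vav1 (0.779) and the transcription factor Irf5 (0.773). For Msr1 they were Hlx (0.702), the myeloid receptor Gp49a (0.697) and the myeloid kinase Fgr (0.654). Fcgr3 was nearest to Fcgr2b (0.900), followed by the lysosomal genes Lgmn and Hexa (0.771 each). Ly75 was nearest to Irf1 (0.880), an interferon-induced transcription factor, and then to Psmb10 (0.814), an immunoproteasome subunit, and Ube2l6 (0.813), the conjugating enzyme of the interferon-induced modifier ISG15. Ccl2 was nearest to its neighbour on chromosome 11, Ccl7 (0.786), then Cxcl9 (0.719) and Irf1 (0.707). Csf1r was nearest to Kat6b (0.800), a histone acetyltransferase, Mat2b (0.788) and Ptpra (0.785), and Ccr2 to the cytokine Il1b (0.733), Atm (0.718) and Ccnh (0.685). With Ptprc itself, rho was 0.718 for C1qa and 0.524 for Msr1, and lay between 0.198 and 0.373 for the other 5 genes.

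Markers of leukocytes as a class lay on the same side as the receptors. All 10 pan-leukocyte genes on the panel had positive log2 fold changes with a median of 0.36, and 4 had an unadjusted p under 0.05 by edgeR, against 7.59% of all tested genes on the higher side. Among the 4 were the integrin chain Itgb2 at 0.71 (SE 0.174, adjusted p = 0.0651 by edgeR), Laptm5 at 0.55 (SE 0.204) and Ptprc at 0.31 (SE 0.131). The summed level of the 10 genes was 1393 to 2442 CPM in abemaciclib and 1107 to 1866 CPM in control tumours. All 11 tested macrophage markers, 4 of the 7 genes included, were positive with a median of 0.45, which was 0.24 over the other 7. Of 11 dendritic cell markers on the panel, 5 were set aside by the filter. The 6 tested, Ly75 among them, were all positive with a median of 0.58, or 0.50 over the other 5, with the integrin chain Itgax at 0.65 (SE 0.179, edgeR adjusted p = 0.0912). Among those set aside, Flt3, Xcr1 and Cd80 had a higher mean CPM in abemaciclib tumours, and Irf4 and Ccr7 a lower one. Summed levels over the 11 genes of each list on the panel hold those of the 7 genes that belong to the list. They were 2080 to 4852 CPM in abemaciclib and 1545 to 3278 CPM in control tumours for the macrophage markers, mostly from Cd14 and C1qa. Cd14 had means of 1869 CPM in abemaciclib and 1393 CPM in control tumours. For the dendritic cell markers the sums were 165 to 430.5 CPM in abemaciclib and 133 to 210.2 CPM in control tumours. How far the level of leukocyte RNA accounts for the receptors was not tested beyond the ratio to Ptprc given above.

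Of the other cell types whose RNA these tumours could hold, neutrophil markers had a median of 0.49 over 7 tested genes, 6 of them positive, with summed levels of 21514 to 64873 CPM in abemaciclib and 6937 to 40141 CPM in control tumours, mostly from Lcn2, which epithelium also makes. S100a8, a calcium-binding protein abundant in neutrophils, was at 0.49 (SE 0.200, edgeR adjusted p = 0.259) and the neutrophil receptor Cxcr2 at -0.17 (SE 0.343). T cell markers were sparse, with 7 of 15 tested, a median of 0.31 and a summed level of 40.4 to 168 CPM in abemaciclib and 39.3 to 121 CPM in control tumours. Of 7 cytotoxic and natural killer genes, which matter here because natural killer cells also carry Fcgr3, 2 were tested with a median of -0.38, the summed level was 3.66 to 19.2 CPM in abemaciclib and 4.91 to 25.2 CPM in control tumours, and Gzma was at 0 counts in every tumour. B cell markers summed to 8.24 to 24.8 CPM in abemaciclib and 2.11 to 16.5 CPM in control tumours, and 1 of 7 was tested, Cd22 at 0.58 (SE 0.266). Endothelial markers had a median of 0.098 over 8 genes, fibroblast markers one of 0.38 over 8, luminal markers one of -0.039 over 10, and the single mast cell gene on the panel, Kit, a value of 0.11. All 11 markers of dividing cells were lower, with a median of -1.04 and an unadjusted p under 0.05 each, against 5.81% of all tested genes. By edgeR 0 of 11 passed after adjustment. The count was 11 of 11 without abemaciclib tumours 3 and 10, where 93 of all 2924 tested genes passed. Without those tumours the median was 0.17 over the neutrophil markers and 0.016 over the T cell markers. The part of these cell types in the results for the 7 genes was not tested.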

How the data were processed

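The deposited values were raw counts of reads per gene in 1 table of 23 tumours and 3826 genes, made from an Ion AmpliSeq custom panel per the labels' protocols. The submitters' processing notes name mm10 as the build. The aligner, the counter and the amplicon positions are not given in the labels. Without molecular identifiers, PCR copies are counted as reads. The 7 genes and the gene lists were chosen with earlier results of these data known. Named genes are the 7, their fixed partners, up to 3 genes of smallest p in a list and the 3 nearest in pattern; others (Scarb1, Cfb, Cx3cr1, Cxcr2, Epcam, Krt8, Krt18) were named after their values were seen.

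The tests ran in R 4.3.3, with edgeR 4.0.16 as the main tool (filterByExpr, TMM, glmQLFit and glmQLFTest, two-sided, Benjamini-Hochberg over 2925 genes at 0.05), DESeq2 1.42.0 and limma 3.58.1. The biological coefficient of variation was 32.6%. Log2 CPM for correlations used a prior count of 2. Ratios used counts plus 0.5, and permutation tests 100000 resamples. Ratios had been planned with adjustment over 6 ratios, and after a first look were instead read against the ratios of all 2924 other tested genes. No library was a copy of another, with a chi-square per degree of freedom of at least 18.4 in all 253 comparisons. The edgeR step was tested on simulated data first. Gene positions came from GENCODE M21 on GRCm38, the assembly of mm10, and are 1-based. A result that needs a withheld item is not reported here.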

Additional observations from a re-analysis of the deposited data

How the results depend on the processing

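Each of the 7 genes kept the direction of its log2 fold change under every alternative run, 36 for each gene except Ccr2, which a mean count of at least 50 left out. The count of genes called by edgeR was 0, and became 1 with library totals, 60 by DESeq2, 127 by limma-voom, 93 without abemaciclib tumours 3 and 10, 2 when abemaciclib tumour 9 and control tumour 8 were left out, and 0 to 47 with 1 tumour left out. The calls gained by DESeq2, by limma-voom and without abemaciclib tumours 3 and 10 were, in that order, 0.74, 0.66 and 0.76 for Msr1, 0.69, 0.52 and 0.76 for Fcgr3 and 0.80, 0.73 and 0.73 for Ly75, and 0.47 and 0.48 for C1qa by the first pair of tests. With 1 tumour left out the values ran from 0.67 to 0.79 for Msr1, 0.50 to 0.75 for Fcgr3 and 0.70 to 0.88 for Ly75. For the ratio to Csf1r, the Ccr2 difference ran from -1.34 to -0.98 over 28 alternatives, with permutation p under 0.05 in each. Of these alternatives, only the one with Ptprc as denominator was set against the ratios of all genes. With Ptprc as denominator the differences of Msr1 and Ly75 were 0.38 and 0.45, with an unadjusted p under 0.05 and adjusted p over all genes of 0.108 and 0.111. Ccl7, the list counts without abemaciclib tumours 3 and 10 or without the 7 genes, and the ratios to Ptprc over all genes were added after seeing the data. Without abemaciclib tumours 3 and 10, the difference in the ratio to Csf1r turned to -0.063 for C1qa and to -0.18 for Ccl2. With 1 tumour left out, these ratio differences ran from -0.044 to 0.091 for C1qa and from -0.062 to 0.42 for Ccl2. The cause was not tested.

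Tumours of one number share only the number. Of 11 such pairs, 5 had deviations that correlated above 0.1, in a range of -0.43 to 0.45, and 2 abemaciclib tumours correlated best with their own number. With the number as a replicate block over 11 pairs, 0 genes passed, the log2 fold changes were 0.64 for Msr1, 0.71 for Ly75 and -0.73 for Ccr2, and the Ccr2 ratio difference was -1.08 (exact sign-flip test, p = 0.00391). Counts of 6 to 52 limit Ccr2, and the filter removed genes of T, B and natural killer cells.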

Other observations

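The balance of Fcgr3, the activating IgG receptor, to Fcgr2b, the inhibitory one, was looked at after their values were seen. The ratio of Fcgr3 to Fcgr2b counts in a tumour ran from 0.927 to 1.39 in abemaciclib tumours with a median of 1.04, against 0.755 to 1.10 in control tumours with a median of 0.853. All 12 abemaciclib tumours lay above the control median and 5 above every control tumour. How many other genes had such counts of ratios to Fcgr2b was not computed. The mean ratio was 1.10 ± 0.155 (SD, n = 12) in abemaciclib and 0.884 ± 0.0991 (SD, n = 11) in control tumours, a log2 difference of 0.31 (two-sided permutation test, p = 0.000670). It ran from 0.28 to 0.34 when each of the 23 tumours was left out, with permutation p up to 0.00141. Over 2924 ratios to Fcgr2b, 16.1% had an unadjusted p under 0.05 and 0% passed after adjustment, with an adjusted p of 0.166 for Fcgr3. The number of reads that the 2 genes share was not measured. Abemaciclib tumour 9, which had the highest Fcgr3, also had the highest Fcgr2b, at 421 CPM.

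Csf1r, the defining receptor of macrophages, had a rho of 0.324 with the pan-leukocyte gene Ptprc over 23 tumours with group means removed, and C1qa had one of 0.718. With the TMM factor of the library rho was -0.211 for Csf1r and -0.486 for Fcgr3, the lowest of the 7 genes, and 0.364 for Ccr2, the highest. TMM factors were 0.805 to 1.13 in abemaciclib and 0.860 to 1.26 in control tumours. The part of library scaling in these patterns was not tested.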
